A study of Mus musculus with 3 samples.

Results

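The genes of the renin-angiotensin system were examined in the choroid plexus epithelium (CPE), the layer of epithelial cells that covers the choroid plexus in the ventricles of the brain and secretes cerebrospinal fluid. The array carried 17 probes for 9 genes of the system, *Agt*, *Ren1*, *Atp6ap2*, *Ace*, *Enpep*, *Agtr1a*, *Agtr2*, *Mas1* and *Agtrap*, out of 41174 probes and 27845 gene names. A probe belonged to the set if the gene name in the scanner file was that of a member. Every probe was kept, with both channels and all 3 arrays, and the rule used the gene name alone.

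The CPE came from 3 healthy adult C57BL/6 mice and was cut from frozen sections of the lateral ventricles by laser dissection. The RNA of each mouse was amplified, labelled with the red dye Cy5 and hybridised to an array of its own (mouse or array 1, 2 and 3). RNA from choroid and retinal pigment epithelium (RPE), taken from eyes of wild type C57BL/6 mice, carried the green dye Cy3 on every array and served as the common reference. No animal was treated or carried a modified gene. All 3 arrays had the same dye orientation and the reference was 1 RNA, so that a difference between the tissues and a dye bias of a probe cannot be told apart, and the biological spread of the reference was not measured.

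In the renin-angiotensin system, the protease renin cleaves angiotensinogen to angiotensin I, and angiotensin-converting enzyme (ACE) removes a dipeptide from it to give angiotensin II. Angiotensin II raises blood pressure and drives salt retention through the AT1 receptor, while the AT2 receptor and the Mas receptor, which binds angiotensin 1-7, are known for mostly opposing actions. The brain has been described as holding components of the system of its own, and the choroid plexus has long been known as a tissue rich in ACE.

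The promoter windows of *Ace* and *Ren1* are shown because these genes had the highest ratios of CPE over reference among the members. The sequences are those of RefSeq on build GRCm38.p6, 5′ to 3′ on the strand of the gene, from 250 bases before to 50 bases after an annotated start. Capitals mark 3 motifs wherever they occurred on either strand, the TATA box core TATAAA, the GC box GGGCGG and the CCAAT box CCAAT. A match on the minus strand appears as its reverse complement. RefSeq holds 2 windows for *Ace*, the first at the start of the long transcript and the second within the gene. The short form of ACE, known from the testis, is made from an internal promoter.
Ace, first start, chr11:105967698-105967997, plus strand: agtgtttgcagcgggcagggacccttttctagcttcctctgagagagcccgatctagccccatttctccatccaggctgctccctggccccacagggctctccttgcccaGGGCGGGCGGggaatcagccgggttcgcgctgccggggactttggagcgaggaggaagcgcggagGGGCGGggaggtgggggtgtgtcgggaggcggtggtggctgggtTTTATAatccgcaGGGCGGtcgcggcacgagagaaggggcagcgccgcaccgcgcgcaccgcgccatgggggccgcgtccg
Ace, second start, chr11:105974939-105975238, plus strand: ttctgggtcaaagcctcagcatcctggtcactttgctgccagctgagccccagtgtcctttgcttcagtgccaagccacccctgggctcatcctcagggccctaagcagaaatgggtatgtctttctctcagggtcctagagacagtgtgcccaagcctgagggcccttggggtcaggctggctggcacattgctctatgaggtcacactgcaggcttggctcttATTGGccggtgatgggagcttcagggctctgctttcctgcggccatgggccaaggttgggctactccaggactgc
Ren1, chr1:133350424-133350723, plus strand: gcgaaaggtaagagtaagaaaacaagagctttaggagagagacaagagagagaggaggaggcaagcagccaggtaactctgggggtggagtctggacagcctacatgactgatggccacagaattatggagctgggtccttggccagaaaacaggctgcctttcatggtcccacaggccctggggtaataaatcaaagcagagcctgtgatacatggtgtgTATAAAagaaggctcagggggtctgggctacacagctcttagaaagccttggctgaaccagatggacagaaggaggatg

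The first *Ace* window was 69.67% G and C. It held the GC box at 4 places on the plus strand, the first and second of them overlapping, and TATAAA on the minus strand at position -31, where positions give the leftmost base of a match from the annotated start. The second *Ace* window was 59.00% G and C and held neither, but CCAAT on the minus strand at position -25. The *Ren1* window was 51.33% G and C and had TATAAA on its own strand at position -29. Among all 32851 promoter windows of this length, 13.62% held TATAAA, 35.66% held GGGCGG and 37.41% held CCAAT on either strand. The cAMP response element TGACGTCA, present in 1.79% of all windows, was in none of the 9 windows found for 8 of the 9 members. *Agtr1a* had no window in the table. These matches describe letters in a window and do not show binding. The windows and the probes are on different builds and were not laid over each other.

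Signal over background differed between the arrays. In the CPE channel, between 46.0% (mouse 2) and 85.6% (mouse 3) of all probes were called well above background, and in the reference channel between 68.6% and 84.2%. Array 3 also had the brighter background surface in the scanner's own fit, at 363 in the CPE channel against 81.2 and 82.6, and on it a dim probe passed the call more easily. Each result is therefore given by array. Of the 17 probes, 10 were above background in CPE on all arrays and 14 in the reference on all arrays, and none was saturated. A probe was tested if 1 of its channels or both exceeded background on every array, which left 14 probes of 8 of the 9 genes. The third *Ace* probe and both *Mas1* probes were not tested.

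Levels are log2 intensities of 1 channel after normalization within and between arrays. Ratios are log2 of CPE over reference, so that 1 is a 2-fold higher signal in CPE. The threshold was an adjusted p under 0.05 in limma, by Benjamini-Hochberg over all 25847 tested probes, together with a change of 2-fold or more. Among all tested probes, 7.09% were past the threshold with a higher signal in CPE and 10.2% with a lower one. With each array centred on its median in place of loess, these shares were 14.5% and 7.13%. Of the 14 tested renin-angiotensin probes, 5 were past it and higher in CPE (*Ace* with 2 probes, and *Ren1*, *Atp6ap2* and *Agtrap* with 1 each) and 0 were past it and lower. One further *Agtrap* probe had an adjusted p under 0.05 in limma but changed by less than 2-fold. The median ratio of the 14 probes was 0.45, against -0.041 for all tested probes, and 10 of the 14 had a mean ratio above 0. When each gene was read from its brightest probe, 3 of 8 tested genes were past the threshold and higher (*Ace*, *Ren1* and *Atp6ap2*), against 8.15% of all 17524 genes tested so. The samples were bulk RNA, in which fewer cells of a type and less RNA per cell cannot be told apart, and the number of arrays, 3, limits the precision.

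**Figure D1:**
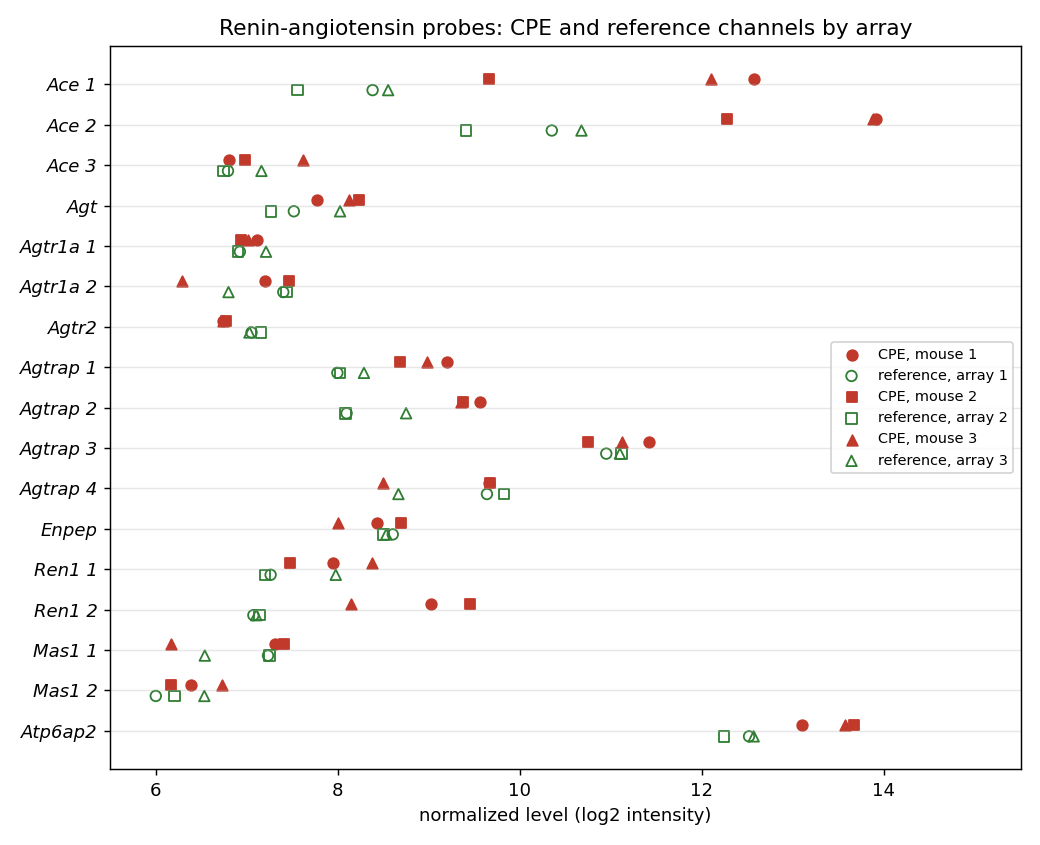
Normalized level (log2 intensity) of each renin-angiotensin probe in the CPE channel (filled red) and the reference channel (open green), with 1 symbol per array. Genes with several probes are numbered from the 5′ end. The CPE and reference points are apart on every array for *Ace* probes 1 and 2, *Ren1* probe 2 and *Atp6ap2*, and overlap for both *Agtr1a* probes.

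Angiotensinogen, the precursor protein encoded by *Agt*, was measured with 1 probe (chr8:127442851-127442910 on mouse build mm8, minus strand). Its CPE level was 7.77, 8.23 and 8.12 in mice 1, 2 and 3, and its reference level was 7.52, 7.26 and 8.02. Both channels exceeded background on every array. The ratio was 0.25, 0.97 and 0.10, above 0 on each array but with most of the difference on array 2. The mean of 0.44 (SE 0.20, n = 3, 95% confidence interval -0.031 to 0.91) was not past the threshold (adjusted p = 0.124 in limma). In brain, angiotensinogen is known as a product of astrocytes. Of 7 astrocyte markers tested, 1 was past the threshold and higher in CPE and 4 were lower, with *Gja1* at -3.43 (SE 0.16) and *S100b* at -3.45 (SE 0.23). Their summed linear level was 4991 to 5671 in CPE and 12284 to 16944 in the reference. Photoreceptor markers were lower in 6 of 6, with a sum of 159288 to 165360 in the reference against 4309 to 5985 in CPE. Neuron markers were higher in 0 and lower in 4 of 7. Photoreceptor transcripts were thus detected in the reference, and the astrocyte ratios depend on its make-up as well as on CPE. The part of astrocytes in the *Agt* signal was not tested.

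Renin, encoded by *Ren1*, had 2 probes on the plus strand of chromosome 1, and they differed. The more 3′ probe (chr1:135187628-135187687, mm8) had a CPE level of 9.02, 9.45 and 8.14 and a reference level of 7.07, 7.14 and 7.10. All CPE values lay above all reference values, and the lowest was that of mouse 3. The ratio was 1.95, 2.31 and 1.04, with a mean of 1.77 (SE 0.24, n = 3), or 3.40-fold, past the threshold (adjusted p = 0.00127 in limma). The more 5′ probe (chr1:135181736-135181795, mm8), 5892 bases upstream, had a CPE level of 7.94, 7.47 and 8.37 and a reference level of 7.26, 7.20 and 7.98. It was above background in CPE in mice 1 and 3 only. Its ratio of 0.68, 0.28 and 0.40 averaged 0.45 (SE 0.16, n = 3) and was not past the threshold (adjusted p = 0.0578 in limma). On each array the 5′ probe had the smaller ratio, with a 5′ minus 3′ difference of -1.27, -2.03 and -0.64. By its listing the 3′ probe was the less specific. The scanner files give transcripts of both *Ren1* and the near-identical *Ren2* for it, and *Ren1* transcripts alone for the 5′ probe. C57BL/6 mice are known to carry *Ren1* and not *Ren2*. The probe named for *Ren2* had a ratio of 1.76, 1.46 and 0.19, with a mean of 1.13 (SE 0.29, n = 3, adjusted p = 0.0176 in limma). It was above background in the reference on 1 array only. Which transcript each of these probes bound was not tested.

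The prorenin receptor, encoded by *Atp6ap2* and also an accessory subunit of the proton pump of acidic vesicles, had 1 probe (chrX:11773457-11773516, mm8). Its CPE level was 13.10, 13.67 and 13.57 and its reference level was 12.52, 12.24 and 12.57. The channels did not overlap, and both were far above background on all arrays. The ratio of 0.58, 1.43 and 1.01 had a mean of 1.01 (SE 0.19, n = 3, 95% confidence interval 0.55 to 1.46), or 2.01-fold (adjusted p = 0.00571 in limma). The mean stood at the 2-fold limit. It was 0.79 without mouse 2 and 0.89 with arrays weighted by their quality, both short of 2-fold, with an adjusted p of 0.0162 and 0.00529 in limma. It was 1.84 with median centring of each array (adjusted p = 0.00311 in limma) and 1.22 without mouse 1.

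*Ace* encodes the enzyme that makes angiotensin II and also degrades bradykinin. It was measured by 3 probes on the plus strand of chromosome 11. The middle probe (chr11:105805174-105805233, mm8) had a CPE level of 13.91, 12.28 and 13.88 and a reference level of 10.35, 9.41 and 10.68. Its ratio of 3.56, 2.87 and 3.21 averaged 3.21 (SE 0.18, n = 3, 95% confidence interval 2.80 to 3.63), or 9.28-fold (adjusted p = 2.19e-05 in limma). All 3 mice lay above all reference values by more than the SD over arrays of either channel (0.93 in CPE and 0.66 in the reference).

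The most 5′ *Ace* probe (chr11:105802147-105804133, mm8) spans more bases of the genome than the probe is long and so joins stretches that lie apart in the gene. Its CPE level was 12.57, 9.66 and 12.10 and its reference level was 8.38, 7.56 and 8.55. Array 2 was the low one in both channels, with an SD over arrays of 1.56 in CPE and 0.53 in the reference. The ratio was 4.19, 2.10 and 3.55, with a mean of 3.28 (SE 0.35, n = 3, 95% confidence interval 2.46 to 4.10), or 9.71-fold (adjusted p = 3.84e-04 in limma). The ratio of the 5′ probe minus that of the middle probe was 0.63, -0.77 and 0.34 on arrays 1, 2 and 3. Both probes are listed with the same 2 RefSeq transcripts of *Ace*, so they do not separate the long from the short form.

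The most 3′ *Ace* probe (chr11:105806254-105806313, mm8) stood apart. It lay 1080 bases beyond the middle probe and is listed for a single deposited mRNA and neither RefSeq transcript. Its CPE level was 6.80, 6.98 and 7.62 and its reference level was 6.79, 6.74 and 7.16, and it was above background on array 3 only in both channels. Its ratio of 0.01, 0.24 and 0.46 had a mean of 0.24 (SD 0.22, n = 3) and was not tested. It was 3.55, 2.63 and 2.75 below the ratio of the middle probe on the 3 arrays.

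Because ACE is known from endothelium as well as from epithelia, the endothelial markers are given beside it. Of 9 tested, 1 was higher in CPE (*Plvap*, 1.21, SE 0.19, a protein of fenestrated vessels) and 1 lower (*Vwf*, -1.53, SE 0.15), and the median ratio was -0.11. The remaining 7 were not past the threshold, with ratios from -0.54 to 0.95. The summed linear level of all 9 was 12766 to 16106 in CPE and 13669 to 15158 in the reference, ranges that overlap. All 9 exceeded background in each channel of every array, so their transcripts were detected on both sides. Smooth muscle and pericyte markers were higher in 0 and lower in 2 of 8. Markers of the CPE itself were higher in 9 of 11, with *Kl* at 5.42 (SE 0.23) and *Prlr* at 4.38 (SE 0.20), and a median of 2.35. Genes listed as markers of ependyma, the ciliated cells that line the ventricle beside the choroid plexus, were higher in 5 of 5, with a median of 2.98. They summed to 12453 to 20132 in CPE against 1185 to 1580 in the reference. Whether these signals came from ependyma or from the CPE itself was not tested. RPE and melanocyte markers were lower in 8 of 8. CPE and ependymal markers thus moved the same way as *Ace*, *Ren1* and *Atp6ap2*, and their part in these ratios was not tested.

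*Enpep* encodes glutamyl aminopeptidase, which converts angiotensin II to angiotensin III. Its probe (chr3:129262014-129262073, mm8, minus strand) had a CPE level of 8.43, 8.70 and 8.0 and a reference level of 8.60, 8.50 and 8.53. The CPE values lay on both sides of the reference values. The ratio of -0.18, 0.20 and -0.53 averaged -0.17 (SE 0.18, n = 3, 95% confidence interval -0.60 to 0.26) and was not past the threshold (adjusted p = 0.503 in limma).

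**Figure D2:**
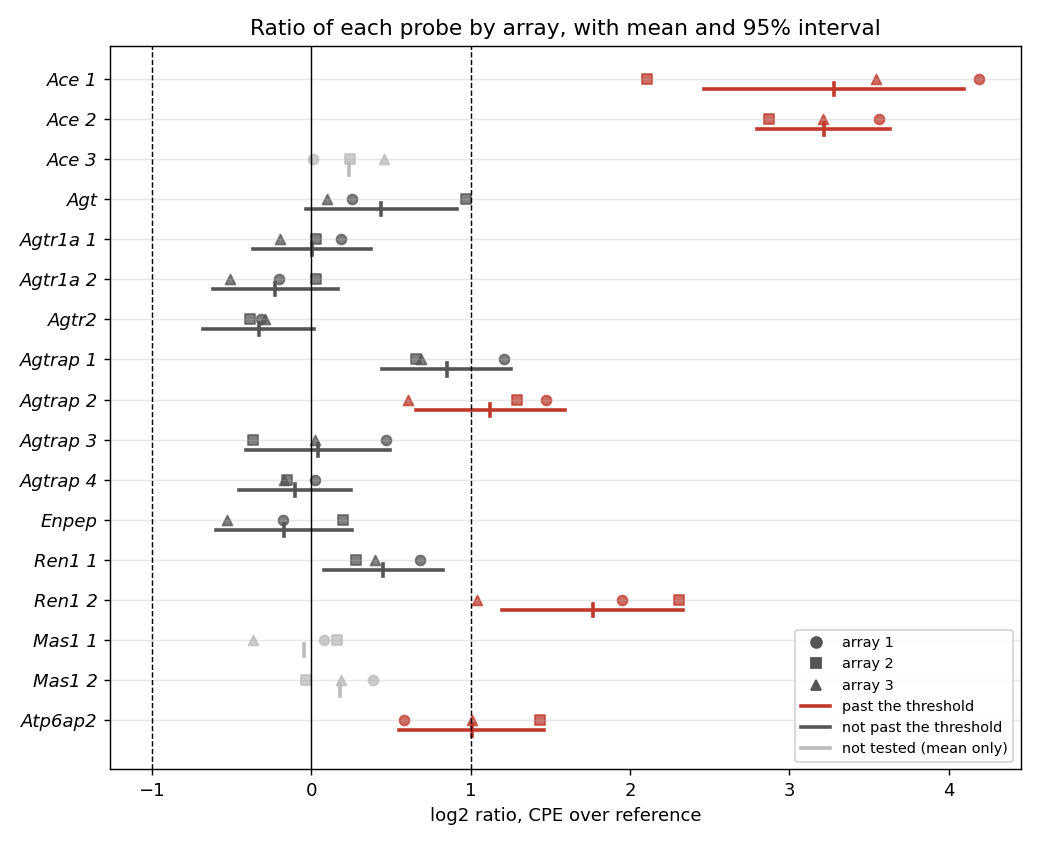
Log2 ratio of CPE over reference for each probe, with 1 symbol per array, the mean as a short vertical line and the 95% confidence interval of the limma fit as a bar. Dashed lines mark a 2-fold difference. The intervals of *Ace* probes 1 and 2 run from 2.46 to 4.10 and from 2.80 to 3.63, while those of the receptors *Agtr1a* and *Agtr2* include 0.

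The receptor genes were near the background in CPE. *Agtr1a* encodes the main AT1 receptor of the mouse and had 2 probes on chromosome 13. The first (chr13:30389344-30389403, mm8) had a CPE level of 7.11, 6.93 and 7.01, a reference level of 6.92, 6.90 and 7.21 and a ratio of 0.19, 0.03 and -0.20. The mean was 0.0068 (SE 0.16, n = 3, adjusted p = 0.978 in limma), with a 95% confidence interval of -0.36 to 0.38. The second (chr13:30390234-30390293, mm8) had a CPE level of 7.20, 7.47 and 6.29 and a reference level of 7.40, 7.43 and 6.80. Its ratio of -0.20, 0.03 and -0.51 averaged -0.23 (SE 0.17, n = 3, adjusted p = 0.327 in limma), with an interval of -0.62 to 0.17. Both probes were above background in the reference on all arrays, but in CPE on 1 array each, array 3 for the first and array 1 for the second. Neither was past the threshold. The ratio of the scanner software, which subtracts a fitted background, gave -1.47 for the second probe, with an adjusted p of 0.0543 in limma.

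*Agtr2*, the gene of the AT2 receptor, had 1 probe (chrX:20645397-20645456, mm8). Its CPE level was 6.73, 6.77 and 6.74 and its reference level was 7.05, 7.15 and 7.03. The ratio of -0.32, -0.39 and -0.29 was below 0 on every array and averaged -0.33 (SE 0.15, n = 3, 95% confidence interval -0.68 to 0.015), which was not past the threshold (adjusted p = 0.117 in limma). In CPE it was above background on array 3 only. Every CPE value lay below every reference value and the values differed little between arrays, and the CPE level lay close to the background of the array. With the ratio of the scanner software the mean was -1.09 (adjusted p = 0.0521 in limma).

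*Mas1*, the gene of the Mas receptor, had 2 probes on chromosome 17. The ratio was 0.08, 0.16 and -0.37 for the first and 0.39, -0.03 and 0.19 for the second, and neither was tested. The first was above background in CPE on array 1 only and in the reference on arrays 1 and 2, and the second on array 3 only in both channels. The signs were mixed between arrays for both probes. No bound on a ratio was called for, since every member probe was above background at least once in each channel.

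*Agtrap* encodes a protein that binds the AT1 receptor and promotes its internalization. It had 4 probes on the minus strand of chromosome 4, and their ratios fell into 2 pairs by position. The most 5′ probe (chr4:146925465-146925524, mm8) had a CPE level of 9.20, 8.68 and 8.97 and a reference level of 7.99, 8.02 and 8.29. Its ratio of 1.21, 0.66 and 0.69 averaged 0.85 (SE 0.17, n = 3, adjusted p = 0.00717 in limma), or 1.80-fold, under the 2-fold limit. The next probe (chr4:146924122-146924181, mm8) had a CPE level of 9.57, 9.37 and 9.36 and a reference level of 8.09, 8.08 and 8.75. Its ratio of 1.47, 1.29 and 0.61 averaged 1.12 (SE 0.20, n = 3), or 2.18-fold, past the threshold (adjusted p = 0.00401 in limma), and was 0.95 without mouse 1. On both probes the CPE values lay above all reference values.

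The remaining *Agtrap* probes, toward the 3′ end, did not differ detectably. The first of them (chr4:146922975-146923034, mm8) had a CPE level of 11.42, 10.75 and 11.12 against 10.95, 11.11 and 11.10 in the reference. Its ratio of 0.47, -0.37 and 0.02 averaged 0.041 (SE 0.19, n = 3, adjusted p = 0.886 in limma), with a 95% confidence interval of -0.41 to 0.49. The last (chr4:146921340-146921399, mm8) had a CPE level of 9.66, 9.67 and 8.49 against 9.64, 9.83 and 8.66. Its ratio of 0.02, -0.15 and -0.17 averaged -0.10 (SE 0.15, n = 3, adjusted p = 0.631 in limma), with an interval of -0.45 to 0.25. On every array the 2 probes nearer the 5′ end had larger ratios than the 2 nearer the 3′ end, by 0.74, 1.03 and 0.67 for the first against the third and by 1.45, 1.45 and 0.78 for the second against the fourth. All 4 probes are listed with the same RefSeq transcript of *Agtrap*. No test was made of differences between probes.

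**Figure D3:**
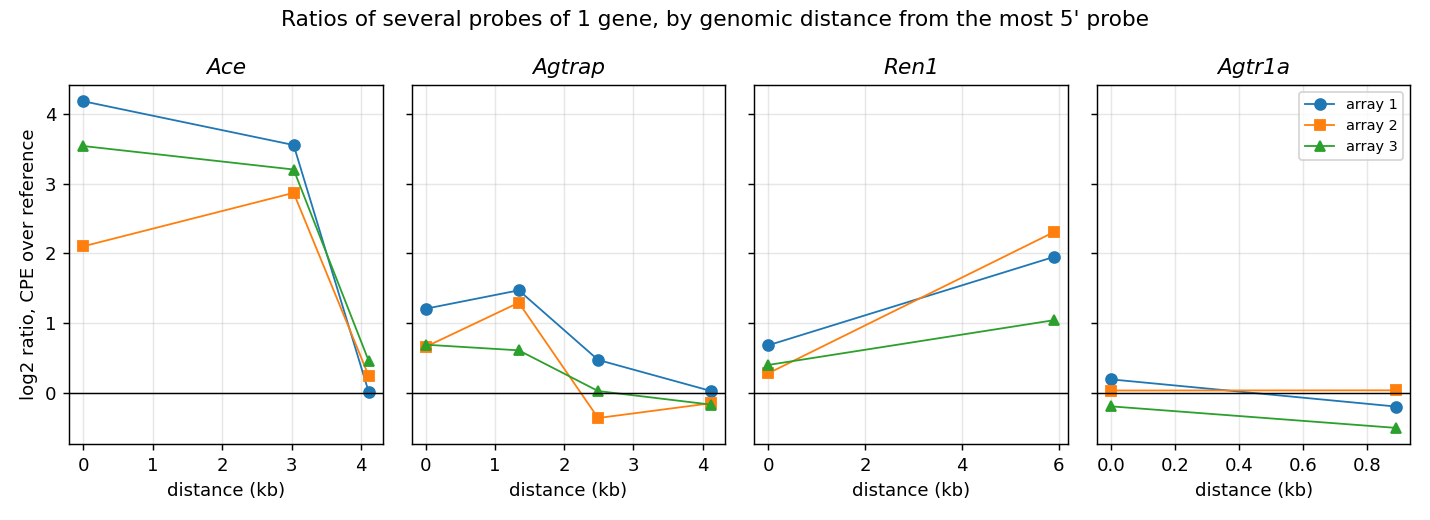
Log2 ratio of CPE over reference on each array (1 line per array) for genes with several probes, against the distance along the transcript strand from the most 5′ probe, in kilobases of genome. The 2 *Ace* probes nearer the 5′ end are high and the third lies between 0.01 and 0.46, the 2 *Agtrap* probes nearer the 5′ end lie above the 2 nearer the 3′ end, and *Ren1* has its larger ratio at the 3′ probe. *Agtr1a* stays between -0.51 and 0.19.

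The rank of each probe among all probes on the array, in the CPE channel alone, gave another view. The classes are those of the study's methods, with the 10th, 50th and 90th percentile as limits between very low, low, moderate and high. By this rule 4118 of the 41174 probes on the array were high. Of the 17 probes, 4 were high, 7 moderate, 6 low and 0 very low, the second *Mas1* probe lying at the lower limit of the low class. That probe ranked as very low in the deposited table (7.41) and in other settings. The high probes were that of *Atp6ap2* (percentile 99.1), the middle and the 5′ probe of *Ace* (98.9 and 94.9) and the third *Agtrap* probe (94.0). The other *Agtrap* probes (76.7, 81.9 and 81.5), both *Ren1* probes (61.3 and 75.3), *Enpep* (70.3) and *Agt* (63.5) were moderate. The third *Ace* probe (39.9) and the receptor probes of *Agtr1a* (32.2 and 29.6), *Agtr2* (17) and *Mas1* (28.2 and 10.3) were low. Probes hybridise with different strength, so the ranks do not order the genes by transcript abundance.

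Ranks of single mice mostly fell in 1 class. *Atp6ap2* ranged from 98.7 to 99.2 over the mice and the middle *Ace* probe from 97.3 to 99.4. The 5′ *Ace* probe was at 82.3 in mouse 2, in the moderate class, against 97.8 and 97.1 in mice 1 and 3. Low probes scattered more, for example the second *Agtr1a* probe at 42.0, 51.0 and 9.9 and the first *Mas1* probe at 45.5, 50.1 and 6.5, both lowest on array 3. When the ranking held only probes above background in CPE on every array, 2 probes stayed high, those of *Atp6ap2* (97.9) and the middle of *Ace* (97.6), and the 5′ *Ace* probe was at 88.6 and the third *Agtrap* probe at 86.6. In that ranking *Agt* (20.1), *Enpep* (34), the 3′ *Ren1* probe (45.1) and the first *Agtrap* probe (48.2) were low in place of moderate.

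**Figure D4:**
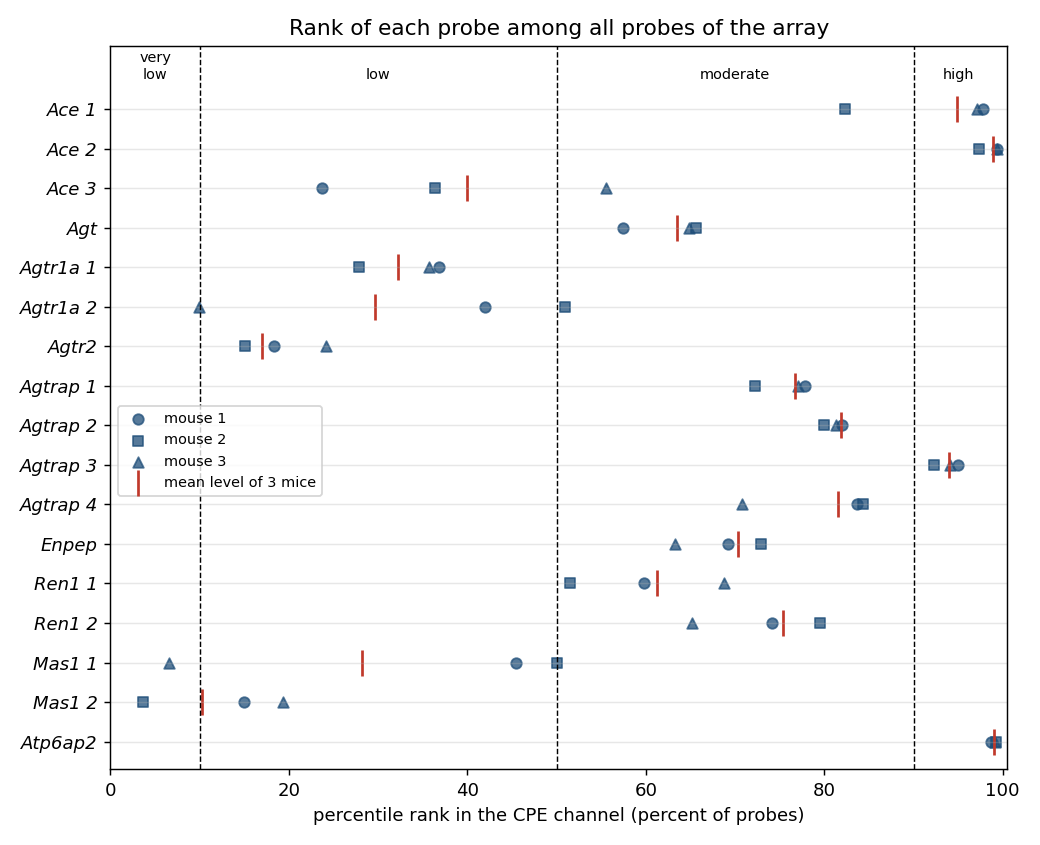
Percentile rank of each renin-angiotensin probe among all probes in the CPE channel (percent), with 1 symbol per mouse and a red line for the rank of the mean level. Dashed lines mark the class limits. *Atp6ap2* and *Ace* probe 2 lie above the 97th percentile in every mouse. For the receptors *Agtr1a*, *Agtr2* and *Mas1* the rank of the mean level is from 10.3 to 32.2.

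The spread over the arrays holds that between mice and that between arrays in the CPE channel, and only the latter in the reference channel, which was 1 RNA. The median SD over 17951 probes above background in both channels was 0.38 in CPE and 0.19 in the reference. The 5′ *Ace* probe had 1.56 in CPE and 0.53 in the reference, and the middle *Ace* probe 0.93 and 0.66. The 3′ *Ren1* probe varied by 0.66 in CPE and 0.03 in the reference. *Atp6ap2* had 0.31 and 0.18, and *Agt* had 0.24 and 0.39, the larger value in the reference. Both *Ace* probes were lowest on array 2 in the reference as well as in CPE, so their spread in CPE is not that between mice alone. The 3′ *Ren1* probe was lowest in mouse 3 in CPE, on the array with the brighter background surface. Mouse and array cannot be told apart in its spread.

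Further enzymes, linked to angiotensins or to related peptides, were read from a list of 19, of which 17 were tested. With 1 probe per gene, 2 were higher in CPE and 3 were lower, against 8.15% higher and 11.1% lower among all genes, and the median was 0.081. *Thop1*, thimet oligopeptidase, which cleaves angiotensin I to angiotensin 1-7, had a ratio of 2.27, 2.12 and 0.96 and a mean of 1.78 (SE 0.26, n = 3, adjusted p = 0.00162 in limma). The other one was the probe named for *Ren2*, given above, which is counted by its name although these mice are known to lack that gene. Lower in CPE were *Dpp4*, a dipeptidyl peptidase of the cell surface, with -2.40, -1.80 and -0.34 and a mean of -1.51 (SE 0.35, adjusted p = 0.0117 in limma), *Lnpep*, the aminopeptidase that binds angiotensin IV, with a mean of -1.06 (SE 0.20, adjusted p = 0.00511 in limma) at its brightest probe, and *Cpa3*, a carboxypeptidase of mast cells, with a mean of -1.04 (SE 0.18, adjusted p = 0.00337 in limma). The other tested *Lnpep* probe had a ratio of 0.13 and was not past the threshold. Of 3 tested *Dpp4* probes, 2 were past it and lower, and the remaining one had a ratio of -0.57. *Cpa3* was above background in CPE on 1 array only. Mast cell markers, the list it also belongs to, were higher in 0 and lower in 1 of 4, which was *Cpa3* itself.

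Of 8 further genes for receptors of angiotensins and kinins, their ligands and partners, 7 were found by name and 3 were tested. Of these, 0 were past the threshold in either direction, against 8.15% higher and 11.1% lower among all genes. The median of the 3 was -0.56, with ratios from -0.96 to 0.74. No angiotensin receptor of this list was among those tested. *Agtr1b*, the second AT1 receptor gene of the mouse, was not tested. Its ratio was 0.10, -0.07 and 0.16, and its rank of 4.96 was very low. Receptor probes of both AT1 genes were thus at or near background in CPE on most arrays.

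Signalling genes downstream of the AT1 receptor numbered 15, all tested, of which 2 were higher and 1 lower, against 8.15% and 11.1% of all genes, with a median of -0.21. *Itpr1*, an IP3 receptor that releases calcium from the endoplasmic reticulum, had a ratio of 2.02, 2.19 and 2.08, a mean of 2.10 (SE 0.15, n = 3, adjusted p = 6.05e-05 in limma) and a rank of 99.4. *Plcb3*, a phospholipase C, had a ratio of 1.38, 0.84 and 0.80 and a mean of 1.00 (SE 0.18, adjusted p = 0.00371 in limma), at the 2-fold limit. *Gnaq*, the G protein subunit that couples the receptor to it, was lower at -1.28 (SE 0.20, adjusted p = 0.00219 in limma) at its brightest probe. The other tested *Gnaq* probe had a ratio of -0.75 and was not past the threshold. These proteins serve many receptors besides AT1.

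For the aldosterone branch, 8 of 9 genes were found and 5 tested, with 1 higher and 1 lower, against the same 8.15% and 11.1% of all genes, and a median of 0.11. *Scnn1a*, the alpha subunit of the epithelial sodium channel, was higher, with 1.78, 1.64 and 0.73 and a mean of 1.38 (SE 0.23, n = 3, adjusted p = 0.00269 in limma). It was above background in CPE on 3 arrays but in the reference on 2, so it was tested through its CPE signal alone. *Nedd4l*, a ubiquitin ligase that removes the sodium channel from the membrane, was lower, with -1.93, -1.85 and -1.05 and a mean of -1.61 (SE 0.21, n = 3, adjusted p = 8.89e-04 in limma). *Nr3c2*, the mineralocorticoid receptor, had a mean of 0.11 (SE 0.15, n = 3, adjusted p = 0.594 in limma) and was above background in CPE on 2 arrays. These lists describe which genes passed, and the share of each list was not tested against other genes.

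**Figure D5:**
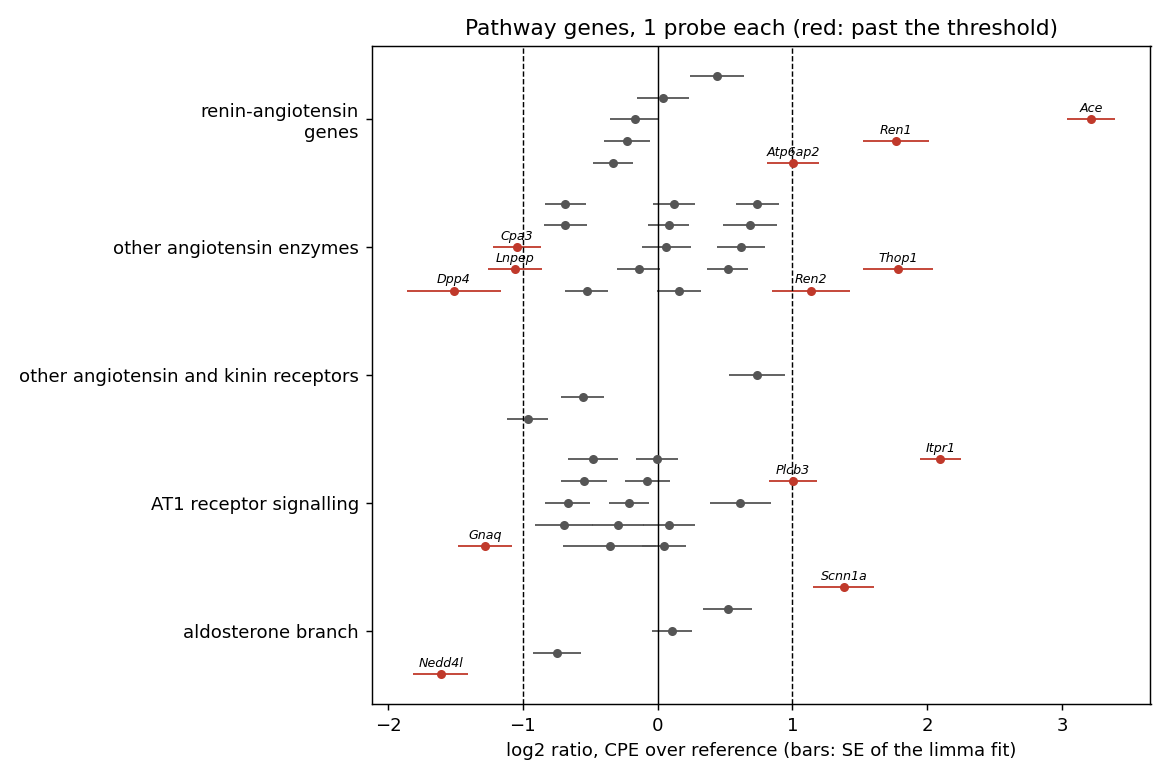
Log2 ratio of CPE over reference for the tested genes of the renin-angiotensin set and of 4 lists of related genes, 1 probe per gene, with the SE of the limma fit as bars. Red points are past the threshold and named, dashed lines mark 2-fold, and height within a list has no meaning. *Ace* has the highest ratio shown (3.21) and *Nedd4l* the lowest (-1.61).

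Genes whose ratios on the 3 arrays were most like those of a member were found by the Euclidean distance of the 3 log2 ratios, among 13623 or 13624 probes of other named genes that exceeded background in each channel of every array. For the middle *Ace* probe these were *Mt3* (distance 0.097, ratios 3.56, 2.87 and 3.31), *Cntn1* (0.30) and *Steap1* (0.35). For the 3′ *Ren1* probe they were *Fam166b* (0.087, ratios 2.00, 2.37 and 1.01), *Pcsk2* (0.16) and *Clec2d* (0.20). For *Atp6ap2* they were *Cox6c* (0.050, ratios 0.57, 1.39 and 1.03), *Syap1* (0.18) and *Acbd5* (0.18). The measure rests on 3 arrays of 1 reference and is a description of likeness only.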

How the data were processed

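Scanner tables as deposited come from Agilent Feature Extraction 9.5.3.1, run by the authors. They give for each spot the mean intensity and background intensity of both channels, flags and, per the file headers, the log10 ratio of processed red over green. A deposited table holds log2 values that the authors normalized between arrays with Aquantile. Set against the scanner values they were levels of the CPE channel (rank correlation with the red mean 0.993 to 0.996), and they served as an alternative. RNA was amplified before labelling, a step known to favour the 3′ part of transcripts. Depth does not apply to arrays, whose number limits the precision.

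In R 4.3.3 with limma 3.58.1, normexp (offset 50, local background) and loess within arrays gave log2 ratios, with control spots at weight 0 and outlier spots left out. Channel levels were then made with Aquantile. An intercept was fitted with lmFit and eBayes for 25847 probes, with Benjamini-Hochberg adjustment. Percentiles came from the uncorrected log2 red mean after Aquantile. On simulated ratios the fit was tested before use. Probe positions are those of the scanner files on mm8, for which no annotation was used here, so exons are not given. Accessions of 16 of the 17 probes matched the RefSeq table.

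All members were named with every probe, and of the other lists each gene past the threshold (at most 4 with values), with *Agtr1b*, *Ren2*, *Nr3c2* and *Lnpep* whatever their values, and up to 2 markers per list. A further gene of that rule is not reported here. The members and the lists were chosen with earlier results of these data known. Alternatives changed the background correction, normalization, filter, weights and arrays. Human samples were not analysed here.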

Additional observations from a re-analysis of the deposited data

How the results depend on the processing

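The ratios of both tested *Ace* probes and of the 3′ *Ren1* probe stayed past an adjusted p of 0.05 and 2-fold in all 10 settings of the ratio, at 2.82 to 4.34, 3.04 to 3.92 and 1.48 to 3.39 (the last with the ratio of the scanner software). The 5 member probes past the threshold became 2, those of *Ace*, when limma's treat tested against a 2-fold change (adjusted p = 0.111 for the 3′ *Ren1* probe). With treat the shares of all tested probes also fell, to 1.76% higher and 3.71% lower. When 1 mouse was left out, 4 to 5 member probes were past the threshold. Of all tested probes, 5.57% to 9.60% were then past it and higher in CPE. *Atp6ap2* fell short of 2-fold without mouse 2 (0.79) and with array weights (0.89), and the second *Agtrap* probe without mouse 1 (0.95). With median centring *Atp6ap2* was at 1.84. The first *Agtrap* probe passed with median centring (1.12) and with the scanner ratio (1.37). The median ratio of the members was 0.59 with median centring, which moved the median of all tested probes from -0.041 to 0.092, 0.73 with the scanner ratio and 0.93 over probes above background in both channels. With the scanner ratio the second *Agtr1a* probe was at -1.47, *Agtr2* at -1.09 and the 5′ *Ren1* probe at 0.91, none past the threshold. Leaving out 1 mouse put *Agt* between 0.18 and 0.61. Among ratios that were not past the threshold, the sign turned for the first *Agtr1a* probe with median centring (-0.16), the scanner ratio (-0.22), the scanner background surface, added after the data were seen (-0.086), and without mouse 1 (-0.085) or mouse 2 (-0.0044), with 0.11 without mouse 3. It also turned for the fourth *Agtrap* probe with median centring (0.46; the third was at 0.72), for *Enpep* with median centring (0.14) and without mouse 3 (0.011, down to -0.35 without mouse 2), and for the third *Agtrap* probe without mouse 1 (-0.17, up to 0.25 without mouse 2). The other pathway genes, 5 higher and 5 lower, became 3 and 3 with no background correction. They became 7 higher and 3 lower with median centring. Of all tested probes, 14.5% were then higher and 7.13% lower, against 7.09% and 10.2% in the main fit. With the scanner ratio 5 were higher and 8 lower. The share of all tested probes was then larger in both directions, with 15.1% lower. Over probes above background in both channels 3 were higher and 4 lower, while both shares of all tested probes were larger than in the main fit. With the mean over the probes of a gene 5 were higher and 4 lower. Leaving out 1 mouse gave 3 to 6 higher and 4 to 6 lower. High probes numbered 2 in place of 4 when ranked among probes above background in CPE. The cause of these shifts was not tested. Each ratio already sets the channels of 1 array against each other. No paired analysis was possible because, beyond that, the arrays form 1 group with no other group to pair. Alternatives for bounded folds were not run, since no member had one.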
